A study of Mus musculus with 6 samples.

Results

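The genes described here encode the 4 protein kinases of the translation initiation factor eIF2, the eIF2 alpha subunit that they phosphorylate (Eif2s1), a regulatory subunit of the phosphatase that reverses this phosphorylation (Ppp1r15b), and 3 proteins that hold back the kinase complex mTORC1 or its output (Eif4ebp1, Sesn2 and Ddit4). They were chosen by name and make up 9 of the 11853 genes whose transcript values could be summed. RNA was sequenced from 6 samples of C2C12 cells, a mouse myoblast line that fuses into myotubes. In 3 of them the cells were transfected with NC siRNA (siNC), and in the other 3 with CNN3 siRNA (siCNN3), directed at the mRNA of the actin-binding protein calponin 3. Both groups share the cell line, the transfection, growth in 10% fetal bovine serum and differentiation in 2% horse serum, and their labels give no change of genotype. The study describes the sequenced cells as differentiating myoblasts, and its methods for differentiation repeat the transfection and set a harvest time without naming the sequenced samples. Which CNN3 siRNA was used for them is not given in the sources used here. The samples are numbered in the labels, which do not say whether they are separate cultures, so the p-values measure the spread between these samples, which may be technical.

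As background, eIF2 brings the initiator tRNA to the ribosome. When a stress kinase phosphorylates its alpha subunit, most mRNAs are translated less while the mRNA of the transcription factor ATF4 is translated more. The kinases differ in what they sense: HRI (Eif2ak1) responds to haem shortage and mitochondrial stress, PKR (Eif2ak2) to double-stranded RNA, PERK (Eif2ak3) to unfolded protein in the endoplasmic reticulum, and GCN2 (Eif2ak4) to uncharged tRNA. PKR is also the product of an interferon-inducible gene. mTORC1 promotes translation and muscle growth, in part by phosphorylating 4E-BP1 (Eif4ebp1), which in its unphosphorylated form blocks the cap-binding factor eIF4E. Sestrin 2 (Sesn2) and REDD1 (Ddit4) act upstream and inhibit mTORC1, through the amino acid and the TSC branch of the pathway. The data hold RNA levels only, and neither phosphorylation nor protein was measured in these files.

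Levels are given as FPKM, which scales the fragments of a transcript by its length and by the mapped total, summed over the transcripts of a gene. The number of reads is not known, so no counting error can be given. The library of siNC replicate 1 stood apart, with a summed FPKM of 322621 against 347064 to 355591 in the others and 2131 transcripts at 0 against 978 to 1333. Among the 11611 genes that averaged 0.5 FPKM or more, 240 (2.07%) were called, that is, had an adjusted p below 0.05 in a limma fit of log2(FPKM + 1) with Benjamini-Hochberg adjustment. Of these, 201 (1.73% of tested genes) were higher in siCNN3 and 39 (0.336%) lower, so that 83.8% of the calls were higher, compared with 68.3% after quantile normalization. Without siNC replicate 1, 70 genes were called higher and 27 lower, so that 72.2% of the calls were higher. The number of calls ranged from 20 to 608 with 1 library left out. The targeted gene, Cnn3, was at 61.4 to 62.8 FPKM in siNC while siCNN3 replicates 1, 2 and 3 had 19.04, 39.2 and 25.6 FPKM, 44.8% of the siNC mean, without overlap but also without a call (limma, adjusted p = 0.0666). Of the skeletal muscle markers, 17 were tested and 7 were called lower, and their summed level was 227.8 to 285.6 FPKM in siNC against 148.4 to 155.3 in siCNN3. The labels call the cells myotubes, and the muscle regulators Myod1 and Myog were low in every library, at no more than 3.10 FPKM. A further such regulator, Myf5, was at 3.55 to 5.64 FPKM in siNC against 5.40 to 12.95 in siCNN3, the 1 tested muscle marker with a positive log2 fold change (0.88, limma adjusted p = 0.238). Of the 11 blood and immune cell markers, 5 had values, and their summed level was 168.9 to 448.9 FPKM in siNC against 47.1 to 62.9 in siCNN3, most of it from the globin genes Hba-a1 and Hbb-bs. The single endothelial and epithelial markers with values, Tek and Epcam, were at no more than 1.37 and 1.45 FPKM. The adipocyte marker Fabp4 was called lower, at 8.09 to 10.9 FPKM in siNC against 2.17 to 3.13 in siCNN3 (limma, adjusted p = 0.0152). Their part in the differences below was not tested, and in such bulk samples fewer cells of a kind and less RNA per cell cannot be told apart.

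Eif4ebp1 was called higher in siCNN3, and it was the only one of the 9 genes to be called. Eif2ak2 had the largest difference, close to 3-fold, but was not called, and Sesn2, at 2.15 times its siNC mean, was not called either. At an unadjusted p below 0.05 there were 6 of the 9 genes, 4 higher and 2 lower, compared with 16.1% of all tested genes. In 7 of the 9 the values of the 2 groups did not overlap, as they did not in 23.1% of tested genes. In 5 of these the siCNN3 values were the higher ones (13.8% of tested genes) and in 2, Eif2ak3 and Eif2ak4, the lower ones (9.34%). For each such gene a two-sided exact permutation test gave p = 0.1, the smallest that 3 samples against 3 allow. The median log2 fold change of the 9 genes was 0.40, beside 0.03 for all tested genes.

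**Figure D1:**
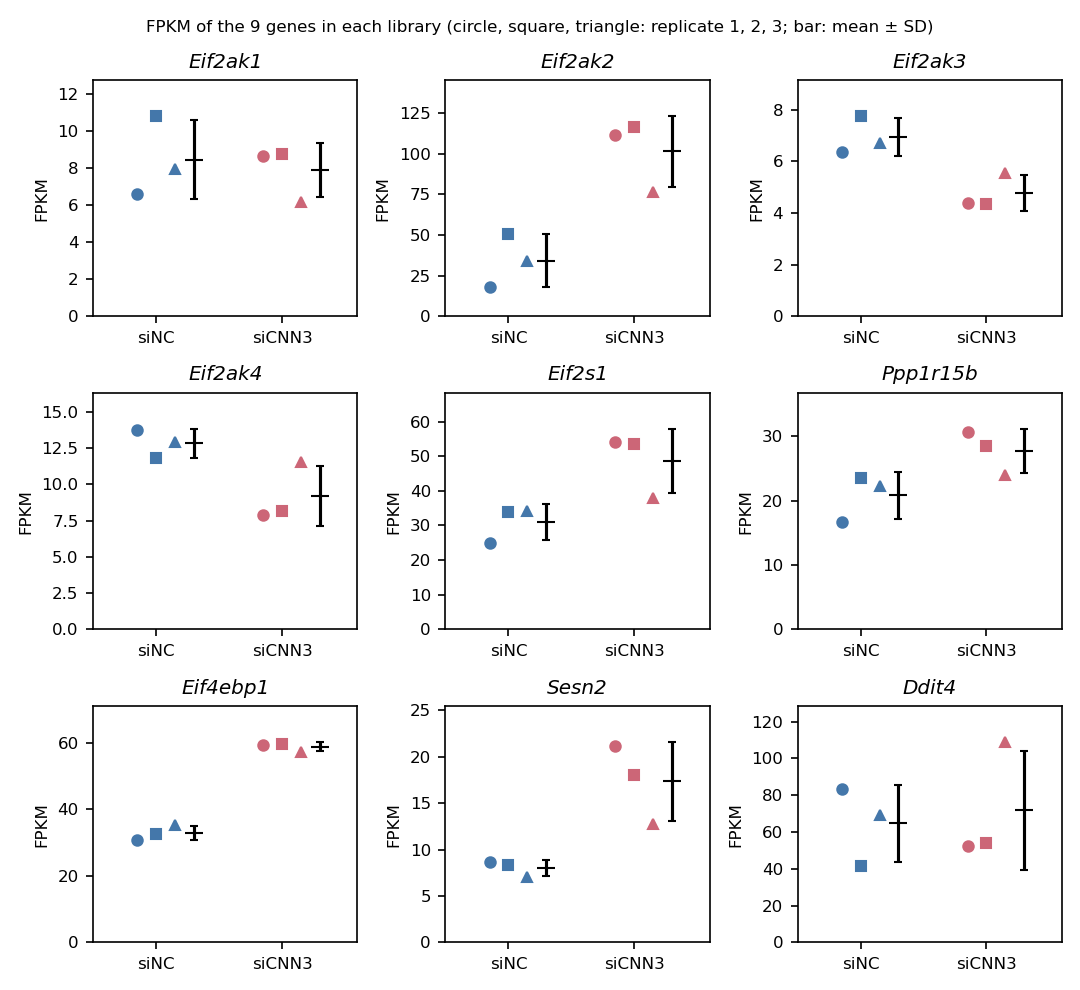
FPKM of each of the 9 genes (vertical axes, from 0) in siNC and siCNN3, with circles, squares and triangles for replicates 1, 2 and 3 and bars for the mean ± SD (n = 3). The groups overlap for Eif2ak1 and Ddit4 and are apart for the other 7 genes, and siCNN3 replicate 3 (triangle) lies nearest to siNC for all 7.

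Among the kinases, Eif2ak2 was the most abundant in every library and the only one with higher values in siCNN3. Eif2ak2, the gene of PKR (chromosome 17 of GRCm38, 78852564 to 78882573, minus strand), had values of 18.1, 50.6 and 34.1 FPKM in siNC replicates 1, 2 and 3. In siCNN3 it was at 111, 116 and 76.5 FPKM. Every siCNN3 library was above every siNC library, and the siNC libraries differed among themselves by more than 2-fold. The means were 34.3 ± 16.2 and 101 ± 21.7 FPKM (SD, n = 3), a 2.96-fold difference. On the log2 scale the difference was 1.63, with 0.36 as its standard error (SE) and a 95% interval of 0.77 to 2.48 (limma, adjusted p = 0.0815). Without siNC replicate 2, the highest of its group, it was 1.96 and Eif2ak2 was called (limma, adjusted p = 0.0475), while the adjusted p ranged up to 0.280 with other libraries left out.

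The Eif2ak2 values were set beside those of interferon response genes. The mean of a list of 40 such genes, on the log2(FPKM + 1) scale and relative to the siNC mean, was -0.92, 0.95 and -0.04 for the siNC libraries and 3.64, 3.77 and 2.73 for the siCNN3 libraries, each in the order of their numbers. On the same scale Eif2ak2 was at -0.77, 0.66 and 0.11 in siNC and at 1.79, 1.85 and 1.25 in siCNN3. Both were lowest in siNC replicate 1, highest of siNC in replicate 2 and lowest of siCNN3 in replicate 3, and the steps of Eif2ak2 were smaller. This order is not particular to them: Eif2ak1 and Ppp1r15b had the same 3 extremes, the means of the eIF2, ATF4, mTORC1 and muscle lists were also lowest in siNC replicate 1 and highest in siNC replicate 2, and 58.5% of all tested genes were lowest of siNC in replicate 1. Of the 40 listed genes, 26 were called higher and 0 lower in the limma fit with adjusted p (39 higher and 0 lower at an unadjusted p below 0.05), beside 1.73%, 0.336% and, at the unadjusted p in either direction, 16.1% of all tested genes. The median of their log2 fold changes was 3.42. The 3 called ones with the largest increase were Ifit3, Oas1a and Rsad2, antiviral genes with log2 fold changes of 5.88, 5.02 and 4.80. Without siNC replicate 3 only 2 of the list were called, without siCNN3 replicate 2 there were 4, without siCNN3 replicate 1 there were 7, and without siNC replicate 1 there were 13. Over all tested genes, the calls in these fits numbered 20, 32, 46 and 97. Adar, which edits double-stranded RNA and was picked from the list with its values known, had a log2 fold change of 1.43 (limma, adjusted p = 0.157), a size like that of Eif2ak2. Prkra, whose product PACT can activate PKR, was at 11.3 to 17.2 FPKM in siNC against 8.96 to 16.7 in siCNN3, with overlapping groups.

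**Figure D2:**
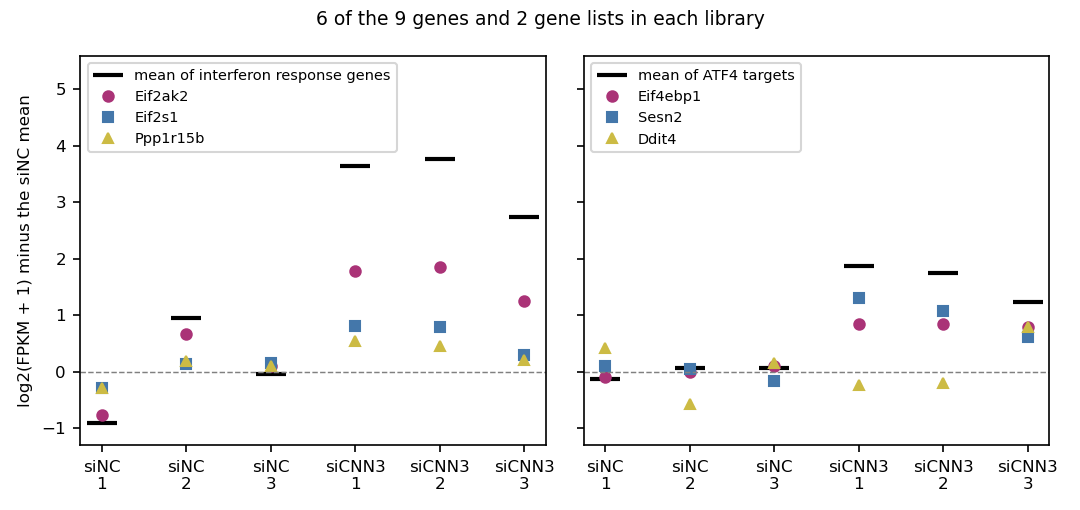
Log2(FPKM + 1) minus the siNC mean (vertical axis) in the 6 libraries (horizontal axis), for Eif2ak2, Eif2s1 and Ppp1r15b beside the mean of 40 interferon response genes (left, bars), and for Eif4ebp1, Sesn2 and Ddit4 beside the mean of 27 ATF4 target genes (right, bars). Eif2ak2 and the interferon list, like the other lists of pathway genes, are lowest of siNC in replicate 1 and highest in replicate 2, while Ddit4 is highest in siCNN3 replicate 3, at 0.80, and below 0 in the other siCNN3 libraries.

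The 5 tested genes whose log2 values were most like those of Eif2ak2 over the 6 libraries were Lgals3bp, Parp12, Igtp, Stat2 and Mrps18c, with Pearson correlations between 0.997 and 0.998. Stat2, a subunit of the factor that interferon activates, had values of 6.65, 27.8 and 13.6 FPKM in siNC against 72.1, 72.5 and 41.5 in siCNN3. Like Eif2ak2 it was not called (limma, adjusted p = 0.0909). The libraries form 2 groups, so that any gene that separates them correlates strongly, and 348 of the 11611 genes had a correlation above 0.95 with Eif2ak2.

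Because PKR is interferon-inducible, the promoter windows of the 9 genes were searched for the core of the interferon-stimulated response element, GAAA, any 2 bases and GAAA again, on both strands. RefSeq windows of 250 bases before to 50 bases after a gene's start (GRCm38.p6) were available for 7 of the 9 genes, in 8 windows. The core was found in the windows of Eif2ak2 and Eif2s1, and in 3.44% of all 32851 windows. These stretches are shown because they hold the only matches among the 9 genes, with the core in capitals. The Eif2ak2 match begins at base 19 after the RefSeq start, in the first exon of the listed transcript, and the Eif2s1 match begins 212 bases before the RefSeq start, inside the first exon of the listed GENCODE transcript. The printed stretches are chr17:78882543-78882631 on the minus strand, which begins upstream of the listed Eif2ak2 transcript, and chr12:78861850-78861879 on the plus strand.
Eif2ak2: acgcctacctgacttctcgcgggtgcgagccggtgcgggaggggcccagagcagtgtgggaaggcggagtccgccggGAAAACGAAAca
Eif2s1: cctggagcaaGAAACAGAAActtacctctc
Of the interferon response genes, 13 of 31 with a window held the core, compared with 2 of 19 in the list of eIF2 regulators, 1 of 26 in that of ATF4 targets and 0 of 53 in that of mTORC1. A match describes these letters only, and no binding was measured.

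The other kinase genes were each lower than Eif2ak2 in every library, with the smallest gap in siNC replicate 1, where Eif2ak4 was at 13.7 FPKM against 18.1 FPKM. Their means did not share its direction. Eif2ak3, the gene of PERK (chromosome 6, 70844515 to 70905245), had values of 6.38, 7.76 and 6.71 FPKM in siNC against 4.41, 4.34 and 5.57 in siCNN3. Each siCNN3 value was below each siNC value. The means were 6.95 ± 0.720 and 4.77 ± 0.688 FPKM (SD, n = 3), and the log2 fold change was -0.46 with an SE of 0.16 and a 95% interval of -0.83 to -0.096 (limma, adjusted p = 0.207). Eif2ak1, the gene of HRI (chromosome 5, 143817788 to 143904251), had values of 6.64, 10.8 and 7.97 FPKM in siNC against 8.69, 8.80 and 6.21 in siCNN3. The groups overlapped, and its log2 fold change of -0.08 had a 95% interval of -0.59 to 0.43 (limma, adjusted p = 0.886), with the sign changing to 0.09 without siNC replicate 2 and to 0.06 without siCNN3 replicate 3. Eif2ak1 overlaps Aimp2 and Ankrd61 on the opposite strand, and whether reads were assigned by strand is not given in the sources used here. The same holds for the lincRNA Gm26637 on the strand opposite to Eif2ak2, which was not analysed here. Eif2ak2, Eif2ak3 and Ppp1r15b also overlap n-R5s29, Gm43292 and Gm26616 on the opposite strand. On the same strand, Eif2ak3 overlaps Gm23346 and Sesn2 overlaps Gm12981. None of these genes had values here.

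Eif2ak4, the gene of GCN2 (chromosome 2, 118388618 to 118475234), had values of 13.7, 11.8 and 12.9 FPKM in siNC against 7.88, 8.13 and 11.5 in siCNN3. The groups were just apart, since siCNN3 replicate 3 was close to siNC replicate 2. The log2 fold change was -0.46 with an SE of 0.17 and a 95% interval of -0.87 to -0.045 (limma, adjusted p = 0.266). Eif2ak4 is also the one gene of the 9 with more than 1 listed transcript. Its leading transcript, with 39 exons, made up 89.5%, 95.2% and 42.5% of the gene in siNC replicates 1, 2 and 3 and 82.4% to 94.5% in siCNN3. In siNC replicate 3 the leading transcript was at only 5.50 FPKM and the 5 others summed to 7.44 FPKM, while in the other libraries these summed to between 0.563 and 1.44 FPKM. The library thus stood apart in how the estimate was divided among transcripts, and not in the gene's sum. Fitted alone, the leading transcript had a log2 fold change of -0.16 (limma, adjusted p = 0.895, where 0.54% of 21668 transcripts were called), which became 0.03 without siNC replicate 1 and -0.49 without siNC replicate 3. When transcripts listed at 0 in any library were left out of the sum, the fold change of Eif2ak4 was -0.26 in place of -0.46.

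The kinase genes were compared within each library, since a difference in 1 gene and not in another does not show that they differ. The log2 ratio of Eif2ak2 to Eif2ak1, from FPKM + 1, was 1.32, 2.13 and 1.97 in siNC and 3.54, 3.58 and 3.43 in siCNN3. The mean ratio was 1.71 higher in siCNN3, and the groups did not overlap. The ratios to Eif2ak3 and Eif2ak4 were higher in siCNN3 by 2.09 and 2.08, and these groups did not overlap either. In each of the 3 comparisons the two-sided exact permutation p was 0.1, also after adjustment over the 3, and this design cannot give a lower one. The difference kept its direction with each library left out, between 1.47 and 2.47 over the 3 ratios. Of the summed FPKM of the 4 kinase genes, Eif2ak2 made up 40.4%, 62.5% and 55.2% in siNC and 84.1%, 84.5% and 76.6% in siCNN3. The other 3 together were with 26.8, 30.4 and 27.6 FPKM in siNC against 20.98, 21.3 and 23.3 in siCNN3.

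**Figure D3:**
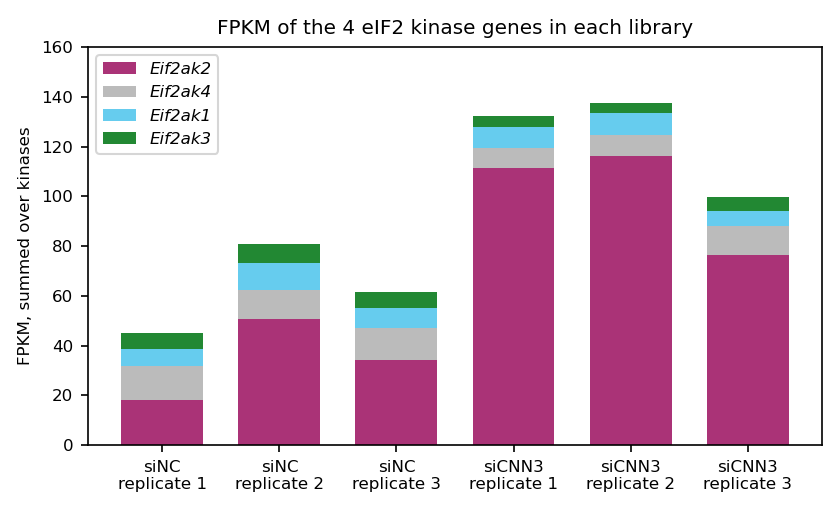
FPKM of the 4 eIF2 kinase genes, stacked (vertical axis, from 0), in each library (horizontal axis). Eif2ak2 takes 40.4% to 62.5% of the sum in siNC and 76.6% to 84.5% in siCNN3, and the sum itself is 44.9 to 81.0 FPKM in siNC against 99.8 to 137.6 in siCNN3.

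Downstream of the kinases, Eif2s1, the gene of the eIF2 subunit that they phosphorylate (chromosome 12, 78861819 to 78887010), had values of 24.9, 33.8 and 34.3 FPKM in siNC. It was at 54.2, 53.6 and 37.8 FPKM in siCNN3. All siCNN3 values were above those of siNC, with siCNN3 replicate 3 only slightly so. The means were 31.0 ± 5.29 and 48.5 ± 9.29 FPKM (SD, n = 3), and the log2 fold change of 0.63 had an SE of 0.19 and a 95% interval of 0.17 to 1.09 (limma, adjusted p = 0.179). Of the other eIF2 subunits, Eif2s2, the beta subunit, was called higher, at 86.6 to 102.1 FPKM in siNC against 164.4 to 194.2 in siCNN3 (a log2 difference of 0.95, limma adjusted p = 0.0144). The gamma subunit Eif2s3x was at 75.3 to 79.0 and 76.1 to 85.6 FPKM in overlapping groups, with a log2 fold change of 0.07 (limma, adjusted p = 0.756).

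The phosphatase that removes this phosphate is directed by Ppp1r15b, which is made constitutively, and by Ppp1r15a (GADD34), which stress induces. Ppp1r15b (chromosome 1, 133131143 to 133139783) had values of 16.7, 23.5 and 22.3 FPKM in siNC against 30.6, 28.6 and 23.9 in siCNN3. The groups were apart by less than 1 FPKM, and the log2 fold change was 0.40 with a 95% interval of -0.00089 to 0.81 (limma, adjusted p = 0.312). Without siNC replicate 1, the lowest library, it was 0.26. Ppp1r15a was called higher, with 12.1, 11.8 and 8.82 FPKM in siNC against 38.6, 37.4 and 22.5 in siCNN3 (a log2 difference of 1.48, SE 0.24, limma adjusted p = 0.0334). In siNC Ppp1r15a was below Ppp1r15b in each library, whereas in siCNN3 it was above Ppp1r15b in replicates 1 and 2 and below it in replicate 3.

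In all, a list of 24 eIF2, eIF2B and eIF2 kinase regulators had 2 members called higher, Eif2s2 and Ppp1r15a, and 0 called lower in the limma fit, beside 1.73% and 0.336% of all tested genes. At an unadjusted p below 0.05, 4 were higher and 1 lower, not far from the 16.1% of all tested genes, and the median of its log2 fold changes was 0.08. Leaving out siNC replicate 1 or 3 or siCNN3 replicate 1 or 2 ended both calls, and without siNC replicate 2 the list held 1 call. The inhibitor of PERK and PKR, Dnajc3, was at 19.1 to 35.1 FPKM in siNC against 18.5 to 19.4 in siCNN3 (limma, adjusted p = 0.402). Hspa5, the chaperone that holds PERK inactive, was at 298.4 to 392.1 FPKM in siNC, whereas siCNN3 replicates 1, 2 and 3 had 368.1, 119.7 and 157.7 FPKM. Its siCNN3 libraries differed from each other more than the groups did.

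Eif4ebp1 differed between the groups with the smallest standard error of the 9 genes. Eif4ebp1, which encodes the translation repressor 4E-BP1 (chromosome 8, 27260329 to 27276674), had values of 30.8, 32.5 and 35.2 FPKM in siNC against 59.5, 59.8 and 57.2 in siCNN3. The lowest siCNN3 value was 22.0 FPKM above the highest siNC value. Its means were 32.9 ± 2.20 and 58.8 ± 1.41 FPKM (SD, n = 3), or 1.79-fold, and its log2 value rose by 0.82, with an SE of 0.11 and a 95% interval of 0.57 to 1.07 (limma, adjusted p = 0.0165). The call was lost when siNC replicate 3 (adjusted p = 0.0811), siCNN3 replicate 1 (0.0984) or siCNN3 replicate 2 (0.118) was left out of the limma fit, although its log2 fold change stayed between 0.78 and 0.87 with any library left out. The genes most like Eif4ebp1 over the 6 libraries were Plac8, Ccl5, Cars, Nr2c2ap and Leng1, with Pearson correlations of 0.9958 to 0.9996. Here too the libraries form 2 groups, and 250 of the tested genes had a correlation above 0.95. Cars encodes the cytosolic cysteinyl-tRNA synthetase and Ccl5 an inflammatory chemokine.

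The relatives of Eif4ebp1, named for their family and after their values were seen, did not share its direction. Eif4ebp2 had values of 26.8, 34.0 and 31.6 FPKM in siNC against 22.9, 22.4 and 23.7 in siCNN3, so that its siCNN3 values were the lower ones (a log2 difference of -0.40, limma adjusted p = 0.187). Eif4ebp3 was below 1 FPKM in every library. Hence in siNC the levels of Eif4ebp1 and Eif4ebp2 were alike, at means of 32.9 and 30.8 FPKM, while in siCNN3 they were at 58.8 and 23.0 FPKM. Eif4e, whose product these proteins bind, was at 31.6 to 35.5 FPKM in siNC against 39.9 to 42.9 in siCNN3 (a log2 difference of 0.30, limma adjusted p = 0.231).

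Sesn2, the gene of the leucine sensor sestrin 2 (chromosome 4, 132492032 to 132510501, minus strand), had values of 8.70, 8.38 and 7.08 FPKM in siNC. In siCNN3 it was at 21.2, 18.1 and 12.8 FPKM. The groups did not overlap, and siCNN3 replicate 3 was again the one nearest to siNC. The means were 8.06 ± 0.857 and 17.3 ± 4.24 FPKM (SD, n = 3), and the log2 difference was 1.00, with an SE of 0.20 and a 95% interval of 0.52 to 1.47 (limma, adjusted p = 0.0646). Without siCNN3 replicate 3 the log2 fold change was 1.19 and Sesn2 was called (limma, adjusted p = 0.0144). In that fit 608 of all tested genes were called. With any other library left out Sesn2 was not called, at an adjusted p between 0.124 and 0.258 (limma). Sesn1 and Sesn3, the other sestrin genes, had their lower values in siCNN3, without overlap. Sesn1 had values of 22.7, 27.4 and 28.5 FPKM in siNC against 12.9, 13.99 and 18.9 in siCNN3 (a log2 difference of -0.76, limma adjusted p = 0.0913). Sesn3 had a log2 fold change of -0.27 (limma, adjusted p = 0.431). Its groups were barely apart, with 5.72 FPKM as the lowest siNC value and 5.70 FPKM as the highest of siCNN3.

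Ddit4, the gene of REDD1 (chromosome 10, 59949669 to 59951834, minus strand), had values of 83.2, 41.7 and 69.1 FPKM in siNC against 52.4, 54.0 and 108.9 in siCNN3. It was the most abundant of the 9 genes in siNC by mean, and its groups overlapped widely. The means were 64.7 ± 21.1 and 71.8 ± 32.2 FPKM (SD, n = 3), and the log2 fold change of 0.12 had a 95% interval of -0.72 to 0.96 (limma, adjusted p = 0.901). Without siNC replicate 2 its sign changed, to -0.16, and without siCNN3 replicate 3 it was -0.22. Its relative Ddit4l was at 3.77 to 5.68 FPKM in siNC against 3.64 to 5.25 in siCNN3, with a log2 fold change of -0.10 (limma, adjusted p = 0.838).

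**Figure D4:**
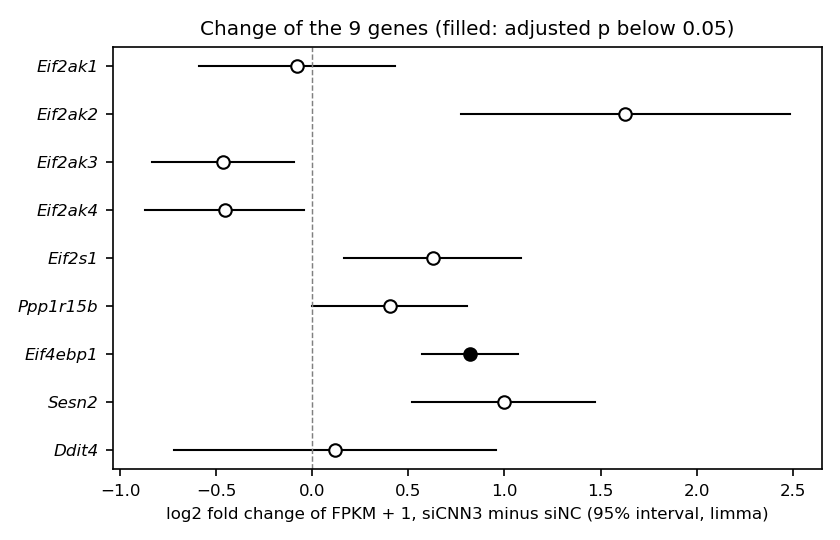
Log2 fold change of FPKM + 1, siCNN3 minus siNC (horizontal axis), with the 95% interval from limma, for the 9 genes. The filled point, Eif4ebp1 at 0.82, is the one with an adjusted p below 0.05, and the intervals of Eif2ak1, Ppp1r15b and Ddit4 include 0.

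Eif4ebp1, Sesn2 and Ddit4 are known as targets of ATF4, so a list of 28 further genes, ATF4 itself and its known targets, was set beside them. Of 27 tested, 12 were called higher and 0 lower, the median of the log2 fold changes was 1.67, and 26 were higher and 0 lower at an unadjusted p below 0.05. Over all tested genes the shares were 1.73% called higher, 0.336% called lower and 16.1% at the unadjusted p. The 3 called genes with the largest increase were Trib3, Chac1 and Nupr1, a pseudokinase, a glutathione-degrading enzyme and a stress-induced nuclear protein, with log2 fold changes of 2.91, 2.79 and 2.79. Atf4 itself had values of 135.8, 188.7 and 184.7 FPKM in siNC against 399.8, 356.1 and 287.2 in siCNN3 (a log2 difference of 1.03, limma adjusted p = 0.0429). Only 1 gene of the list was called without siNC replicate 3, 6 without siNC replicate 1, 5 without siCNN3 replicate 1, 5 without siCNN3 replicate 2 and 24 without siCNN3 replicate 3. Over all tested genes, the calls in these fits numbered 20, 97, 46, 32 and 608. The mean of the list relative to siNC was 1.87, 1.75 and 1.24 on the log2 scale in siCNN3 replicates 1, 2 and 3. The values of Sesn2 had this same order, at 1.30, 1.08 and 0.61, those of Eif4ebp1 were nearly level, at 0.84, 0.85 and 0.78, and those of Ddit4 were -0.24, -0.20 and 0.80. The order of Sesn2 and the list was also that of Eif2s1, at 0.80, 0.79 and 0.29, and of Ppp1r15b, at 0.55, 0.45 and 0.21. Of all tested genes, 48.4% were lowest of siCNN3 in replicate 3. Cebpb was the listed gene nearest to no difference, with a log2 fold change of -0.00062.

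The core of the element that ATF4 binds with C/EBP partners, TGATGNAA on either strand, was found in 0 of the 8 windows of the 9 genes and in 3.97% of all windows. Of the ATF4 list, 10 of 26 genes with a window held it, compared with 1 of 19 in the list of eIF2 regulators, 1 of 31 interferon response genes and 3 of 53 mTORC1 genes. Windows of Eif4ebp1 and Ppp1r15b were not analysed here, and elements elsewhere in a gene were not searched.

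The other genes of the mTORC1 pathway stood near the background of all tested genes. In a list of 59 components, regulators and substrates, 57 were tested and 0 were called in either direction by limma, beside 2.07% of all tested genes. At an unadjusted p below 0.05, 3 were higher and 5 lower, a share close to the 16.1% of all tested genes, and the median of the log2 fold changes was -0.08. Without siCNN3 replicate 3 there was 1 call, in a fit that called 608 of all tested genes. Mtor, the kinase itself, was at 7.14 to 9.40 FPKM in siNC against 6.62 to 8.05 in siCNN3 (a log2 difference of -0.17, limma adjusted p = 0.626). Its partner Rptor had a log2 fold change of 0.06 (limma, adjusted p = 0.889). Among genes chosen after their values were seen, the activator Rheb was at 34.1 to 40.1 FPKM in siNC against 47.3 to 58.4 in siCNN3 (limma, adjusted p = 0.128), and Flcn, which acts on the Rag GTPases, was at 2.30 to 5.01 and 7.88 to 8.50 FPKM (limma, adjusted p = 0.0934). Castor2, related to the arginine sensor of the pathway, was at 7.66 to 9.43 and 4.67 to 6.04 FPKM (limma, adjusted p = 0.110). These 3 were not called.

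**Figure D5:**
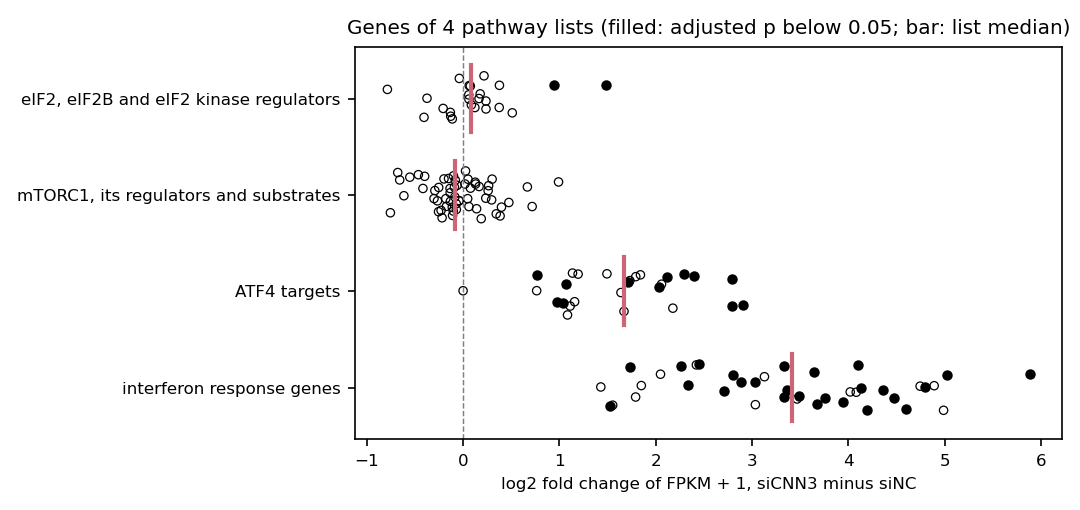
Log2 fold change of FPKM + 1, siCNN3 minus siNC (horizontal axis), of the tested genes of 4 lists, with filled points for an adjusted p below 0.05 in limma, open points for the rest and a bar at the list median. The medians are 0.08 for the eIF2 regulators, -0.08 for the mTORC1 pathway, 1.67 for the ATF4 targets and 3.42 for the interferon response genes.

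In FPKM, which corrects for length, the 9 genes could also be ordered by level. In siNC the order by mean was Ddit4, Eif2ak2, Eif4ebp1, Eif2s1, Ppp1r15b, Eif2ak4, Eif2ak1, Sesn2 and Eif2ak3. The ranges of the first 4 overlapped from each to the next, as did those of the last 3. In siCNN3 the order was Eif2ak2, Ddit4, Eif4ebp1, Eif2s1, Ppp1r15b, Sesn2, Eif2ak4, Eif2ak1 and Eif2ak3. There Eif2ak2, Ddit4 and Eif4ebp1 overlapped from each to the next, as did Eif2ak4 and Eif2ak1, while the other neighbours were apart. By mean, Sesn2 was thus below Eif2ak4 and Eif2ak1 in siNC, where it overlapped Eif2ak1, and above both in siCNN3, with 12.8 FPKM in its lowest siCNN3 library against 11.5 FPKM in the highest of Eif2ak4.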

How the data were processed

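Per the file headers, the authors deposited FPKM for 24023 Ensembl transcripts in 6 libraries (3 siNC, 3 siCNN3). The submitters' processing notes name Bowtie 0.12.2 and the builds mm8 and mm10 without their roles, and the program that estimated FPKM and the read numbers are not given in the sources used here. The depth is therefore unknown. Identifiers without version matched GENCODE M21 (GRCm38, the same assembly as mm10) for 23959 transcripts, and 64 were left out. FPKM were summed per gene. Some values of 0 may be failed estimates: 238 transcripts had 0 in 1 library but reached 10 FPKM in a replicate of its group.
Genes averaging 0.5 FPKM or more were fitted as log2(FPKM + 1) with limma 3.58.1 in R 4.3.3 (mean-variance trend, Benjamini-Hochberg adjustment over all tested genes, threshold 0.05). Fold changes on this scale understate those of low genes. Single values were compared with two-sided exact permutation tests. The scripts were tested on simulated data. Figures were drawn with matplotlib 3.10.9 in Python 3.11.15. Motifs were searched in RefSeq promoter windows (GRCm38.p6).
The 9 genes and all lists were chosen with earlier results of these data known, so they are no independent support. Beside the 9 genes and Cnn3, the text names the 3 called genes of a list with the largest change in a direction, and the 5 tested genes most correlated with Eif2ak2 and with the other member of smallest p. Not all of these are printed for the marker lists. Further genes are named for their family or role, with their values known. Alternatives were a pseudocount of 0.1, no filter or one at 5 FPKM, scaling by median ratios, quantile normalization, a block for the replicate number, no trend, leaving out transcripts at 0, and leaving out each library.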

Additional observations from a re-analysis of the deposited data

How the results depend on the processing

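The replicate numbers do not pair the samples: over tested genes, deviations from the group means correlated at -0.28, 0.31 and -0.02 between samples numbered 1, 2 and 3, and no siNC sample correlated best with its own number. With the number as a block, 68 genes were called in place of 240, and Eif4ebp1 was no longer called (limma, adjusted p = 0.0920). Its log2 fold change of 0.82 cannot move with this block, since each number occurs once in either group. The lists of eIF2 regulators, ATF4 targets and interferon response genes then had 1, 6 and 13 calls in place of 2, 12 and 26. Leaving out transcripts at 0 in any library gave 152 called genes and 16 interferon response genes. Quantile normalization gave 93 lower calls and scaling by median ratios 63, in place of 39.
With each library left out in turn, between 20 and 608 genes were called. The calls ranged from 0 to 2 in the eIF2 list, 1 to 24 in the ATF4 list, 0 to 1 in the mTORC1 list and 2 to 30 in the interferon list. The log2 fold change ranged from 1.24 to 1.96 for Eif2ak2, 0.78 to 0.87 for Eif4ebp1, 0.84 to 1.19 for Sesn2, 0.26 to 0.50 for Ppp1r15b, -0.22 to 0.090 for Eif2ak1, -0.22 to 0.33 for Ddit4 and -0.49 to 0.029 for the leading Eif2ak4 transcript. Causes were not tested. Eif2ak2, Eif2ak3, Eif2ak4, Eif2s1, Ppp1r15b, Eif4ebp1 and Sesn2 kept their direction under each alternative run. Unknown depth leaves the precision of single values open to no estimate beyond the spread of 3 samples.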

Other observations

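Of the 9 genes, siCNN3 replicate 3 was the lowest of its group for 6, Eif2ak1, Eif2ak2, Eif2s1, Ppp1r15b, Eif4ebp1 and Sesn2, and the highest for the other 3, Eif2ak3, Eif2ak4 and Ddit4. Over all tested genes it was the lowest for 48.4% and the highest for 38.0%. In siNC, replicate 1 was the lowest for 6 of the 9 genes, as it was for 58.5% of all tested genes. Cnn3 was at 19.04, 39.2 and 25.6 FPKM in siCNN3 replicates 1, 2 and 3. Replicate 1 had the highest Eif2s1, Ppp1r15b and Sesn2 of the 6 libraries and replicate 2 the highest Eif2ak2 and, by 59.8 against 59.5 FPKM, the highest Eif4ebp1. No relation to the level of Cnn3 was tested.
Ddit4 and Eif2ak1, whose groups overlapped, put the 6 libraries in nearly opposite order. From high to low, Ddit4 was at 108.9 FPKM in siCNN3 replicate 3, 83.2 in siNC replicate 1, 69.1 in siNC replicate 3, 54.0 in siCNN3 replicate 2, 52.4 in siCNN3 replicate 1 and 41.7 in siNC replicate 2. In that same order of libraries, Eif2ak1 was at 6.21, 6.64, 7.97, 8.80, 8.69 and 10.8 FPKM, so that only siCNN3 replicates 1 and 2 broke the reversal. The pair was noticed among 36 pairs of the 9 genes and was not tested.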
